A study of Rattus norvegicus with 52 samples.

Results

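Focal adhesions are the sites where a cell grips the matrix around it, and 10 rat genes of these sites and of the actin filaments tied to them were followed here in kidneys of 3 strains on 2 diets. The genes were Itgb1, Itgb6, Tln1, Vcl, Tns1, Pxn, Zyx, Actn1, Pls3 and Actr3, and their members on the arrays were all probe sets that the platform annotation gives to one of these symbols. That made 19 probe sets, 13 on the RAE230A chip and 6 on the RAE230B chip, of 31142 probe sets and 13810 genes in all. A further 2 probe sets list Actr3 together with a second symbol and were not counted. The 10 genes were chosen by measured differences in these data: Tns1, Vcl and Pls3 for large differences between ET3x2 and S rats, and Tns1 also between ET3x2 and ET3x1 rats, while the values that brought in the other 7 are not recorded. All 19 were bright enough to be tested, that is, their mean lay at or above the median of their chip.

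The study measured left kidneys of 26 male rats, each on its own pair of Affymetrix arrays. ET3x2 and ET3x1 rats are congenic strains, which carry a donor chromosome segment on the background of the Dahl salt-sensitive SS/Jr (S) rat, and the S rat is their comparison strain. There were 4 ET3x2 rats on high salt and 4 on low salt, 4 ET3x1 rats on high salt and 4 on low salt, and 5 S rats on high salt and 5 on low salt. From weaning on day 30 all rats ate 0.4% NaCl. The high-salt rats were moved on days 39 to 41 to 4% NaCl for 24 hours, and all were killed at 40 to 42 days of age. All groups therefore share the S background, and the salt groups differ by a single day of diet. Congenic strains can carry genes beyond the one under study, and the ends of the segments are not given in the labels.

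Integrins span the plasma membrane as pairs of an alpha and a beta chain and bind collagen, laminin and fibronectin outside the cell. Inside, talin and tensin bind the tail of the beta chain, vinculin ties talin to actin and strengthens the link under load, and paxillin and zyxin are docking proteins that gather signalling and actin-assembly factors. Alpha-actinin and plastin join actin filaments into bundles, and the Arp2/3 complex starts new branches. In the kidney such links hold tubule cells and podocytes to their basement membranes.

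The tissue was checked against markers of kidney cell types. All 6 proximal tubule markers were above the brightness limit, Slc34a1 at a mean log2 signal of 13.18, and Umod of the thick ascending limb stood at 13.32 and Aqp2 of the collecting duct at 11.69. Markers below the limit included Nphs1 and Wt1 of podocytes and Ptprc of leukocytes. Array medians lay between 7.47 and 7.52 on RAE230A and between 6.34 and 6.40 on RAE230B. A kidney is a mixture of cells, so fewer cells of a type and less RNA per cell cannot be told apart. The ET3x1 rats on high salt stood apart in a sign of RNA quality: on a log2 scale, the 3' end of the Gapdh control exceeded its 5' end by 0.594 ± 0.0265, against 0.877 ± 0.0994 in ET3x1 rats on low salt (SD, n = 4 each), with no overlap, and the group means of the other 4 groups lay between 0.747 and 0.948. Their beta-actin ratio was 0.609 ± 0.101, against 1.22 ± 0.245 in ET3x1 rats on low salt. A further measure, bioD minus bioC, is the log2 difference between these spike-in controls on RAE230A. It was 3.08 ± 0.150 in ET3x1 rats on high salt and 2.54 ± 0.236 on low salt, with no overlap. S high-salt rats 1 and 2 stood at 1.65 and 1.55 and the others at 2.83 to 2.94, against 2.69 to 2.95 in S rats on low salt. These Gapdh and beta-actin ratios are given again beside the results of the salt comparison in ET3x1 rats, and their part in it was not tested beyond the fits that include them.

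Promoter windows are shown for Vcl, Pls3 and Actr3, which each have a probe set that rose at least 2-fold with salt in ET3x1 rats, and for Itgb6, whose window held the motif searched for. RefSeq windows on GRCr8, 250 bases before to 50 after the gene start, were read for 9 of the 10 genes, Tns1 being the other (11 windows, since Pxn and Zyx have 2 each). They were searched on both strands for the CArG box, the site bound by serum response factor, which is known to control many actin genes. A complete box stood in 1 of the 11 windows, that of Itgb6, at bases 156 to 165, while 1.64% of all 33469 windows held one. The Vcl window opens with letters that match the last 9 of such a box. The letter before them falls outside the window and was not read, so this match was not counted. No other window held the letters, which says nothing about the factor. Capitals mark the box, or in Vcl the 9 letters that match part of a box, and each sequence runs 5' to 3' on the strand of the gene.
Itgb6 chr3:65530284-65530583 (- strand): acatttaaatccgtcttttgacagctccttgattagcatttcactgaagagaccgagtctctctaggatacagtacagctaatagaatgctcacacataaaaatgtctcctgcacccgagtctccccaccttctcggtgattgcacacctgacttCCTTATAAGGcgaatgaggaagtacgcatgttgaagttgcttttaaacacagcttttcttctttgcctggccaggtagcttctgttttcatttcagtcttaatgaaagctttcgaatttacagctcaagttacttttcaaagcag
Vcl chr15:3404751-3405050 (- strand): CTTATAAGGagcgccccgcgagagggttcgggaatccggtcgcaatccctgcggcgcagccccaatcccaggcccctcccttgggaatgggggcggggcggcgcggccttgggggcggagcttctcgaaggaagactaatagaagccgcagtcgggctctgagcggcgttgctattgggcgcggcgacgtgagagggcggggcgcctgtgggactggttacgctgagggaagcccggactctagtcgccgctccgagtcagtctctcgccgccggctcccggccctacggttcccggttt
Pls3 chrX:116401059-116401358 (+ strand): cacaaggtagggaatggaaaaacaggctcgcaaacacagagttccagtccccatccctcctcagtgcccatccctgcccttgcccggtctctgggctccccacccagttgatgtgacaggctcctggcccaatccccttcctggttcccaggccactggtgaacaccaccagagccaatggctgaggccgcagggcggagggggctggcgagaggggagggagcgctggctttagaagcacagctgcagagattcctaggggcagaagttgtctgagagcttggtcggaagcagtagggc
Actr3 chr13:39396460-39396759 (- strand): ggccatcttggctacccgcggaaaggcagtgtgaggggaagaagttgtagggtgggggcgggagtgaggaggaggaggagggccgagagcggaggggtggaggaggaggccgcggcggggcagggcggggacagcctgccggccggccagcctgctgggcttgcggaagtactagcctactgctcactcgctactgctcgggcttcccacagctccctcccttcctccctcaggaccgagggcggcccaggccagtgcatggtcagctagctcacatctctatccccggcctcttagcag

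How the genes responded to 24 hours of salt was asked within each strain, as the difference between high-salt and low-salt rats in one limma fit over all 26 rats, with p-values adjusted by the Benjamini-Hochberg method over all tested probe sets. In ET3x1 kidneys probe sets of Actr3, Pls3, Vcl and Itgb1 were higher on high salt, and Tns1 probe sets moved in both directions. In ET3x1 rats 6 of the 19 probe sets rose and 2 fell at an adjusted p below 0.05, from 5 genes, where 15.9% of all 15473 tested probe sets were called. Of the 19, 1 was called with the Gapdh ratio in the fit, and 5 with the beta-actin ratio. In S rats 1 rose and 1 fell (2.78% of all called). With bioD minus bioC in the fit, 1 of the 19 was called in S rats, and 121 of all tested probe sets in place of 430. In ET3x2 rats none of the 19 was called (0.304% of all called), with 3 of 19 at an unadjusted limma p below 0.05. High-salt and low-salt rats did not overlap at 11 of the 19 probe sets in ET3x1 rats (20% of all), at 2 in S rats (3.54% of all) and at 1 in ET3x2 rats (6.62% of all). The median difference of the 19 was -0.02 in ET3x1, 0.07 in S and 0.06 in ET3x2 rats, against -0.03, 0.03 and 0.02 over all tested probe sets. The genes were chosen with results of these data known, so these counts are a description of the chosen genes. The salt responses of ET3x2 and S rats also share rats with the differences that chose Tns1, Vcl and Pls3. For Tns1 the salt response of ET3x1 rats does so too. For the other genes the values that chose them are not recorded, and salt differences may be among them.

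**Figure D1:**
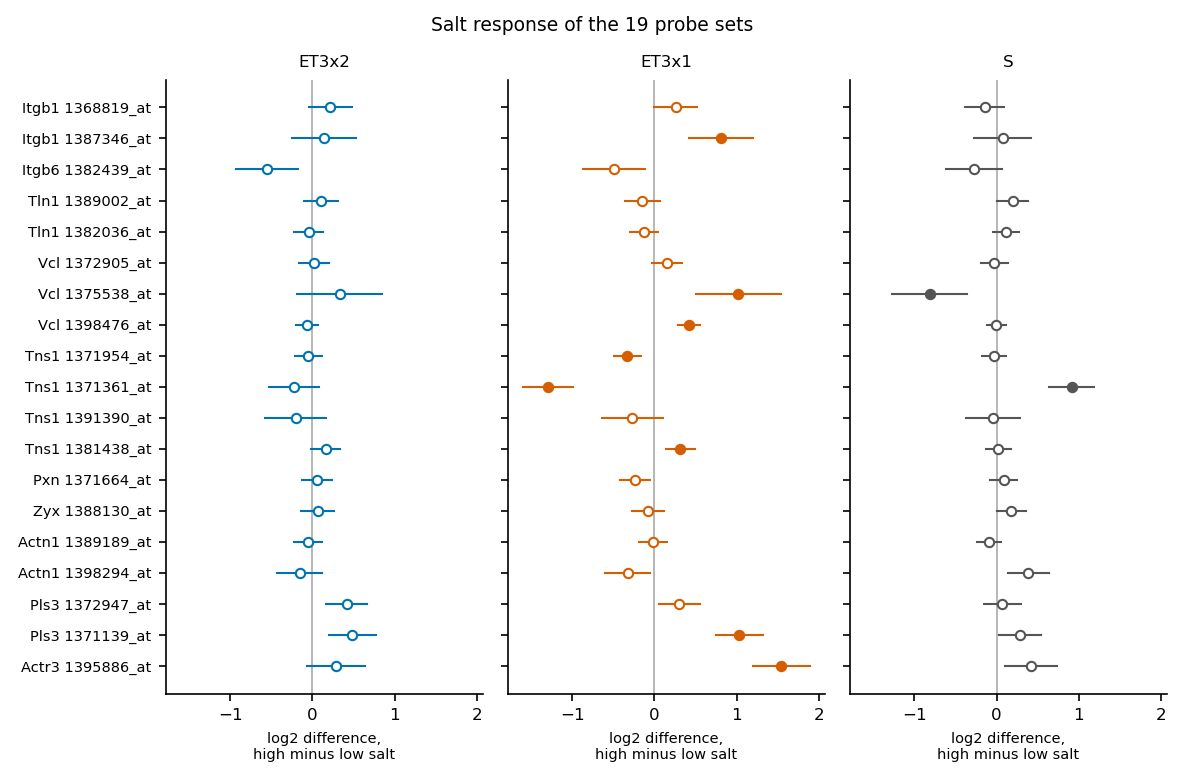
Salt response of the 19 probe sets in ET3x2, ET3x1 and S rats: log2 difference, high minus low salt (x axis), for each probe set (y axis), with its 95% interval from the limma fit. Filled points have an adjusted p below 0.05: 8 in ET3x1, 2 in S and none in ET3x2 rats, and Tns1 1371361_at lies at -1.30 in ET3x1 and 0.92 in S rats.

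Itgb1 encodes the beta1 chain, shared by most receptors for collagen and laminin, and has 2 probe sets. The brighter, 1368819_at, averaged 10.87 ± 0.10 log2 units on high salt and 10.61 ± 0.25 on low salt in ET3x1 rats (SD, n = 4 each), a difference of 0.26 ± 0.13 (SE) that did not pass the test (limma adjusted p = 0.174). The dimmer, 1387346_at, stood at 8.89, 8.93, 9.23 and 9.32 in the 4 ET3x1 rats on high salt, against 8.51, 7.75, 8.23 and 8.62 on low salt. All high-salt rats lay above all low-salt rats, and the rise was 0.81 ± 0.19, or 1.76-fold (limma adjusted p = 0.00435). In ET3x2 and S rats the same probe set differed by 0.14 ± 0.19 and 0.08 ± 0.17 between diets (limma adjusted p = 0.847 and 0.866). The signals of both probe sets moved together over the 26 rats (r = 0.67, a description). This probe set also ran against the RNA quality ratios, with r = -0.64 for Gapdh and -0.63 for beta-actin over 26 rats and -0.64 and -0.71 after group means were removed. With the Gapdh ratio in the fit its rise in ET3x1 rats was 0.08 (limma adjusted p = 0.950), and with the beta-actin ratio 0.16 (limma adjusted p = 0.650).

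Itgb6 encodes the beta6 chain, which pairs with alpha v in epithelia and is known for releasing active TGF-beta from its latent form. Its probe set lay close to the lower limit, at a mean of 6.83 against a chip median of 6.38. ET3x2 rats read 6.35, 6.33, 6.80 and 6.74 on high salt, against 7.04, 7.15, 7.28 and 6.96 on low salt. ET3x1 rats read 6.91, 6.62, 6.52 and 6.60 on high salt, against 7.13, 7.31, 7.23 and 6.94 on low salt. In both congenic strains all high-salt rats were below all low-salt rats, and in S rats the diets overlapped, with 6.14 to 7.31 on high salt and 6.43 to 7.31 on low salt. The differences were -0.55 ± 0.19 in ET3x2, -0.49 ± 0.19 in ET3x1 and -0.28 ± 0.17 in S rats, and none passed the test (limma adjusted p = 0.200, 0.0705 and 0.404). Over 26 rats Itgb6 ran with the Gapdh ratio at r = 0.42 and with the beta-actin ratio at r = 0.61, and within groups at 0.04 and 0.48.

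Talin 1, the product of Tln1, switches integrins on by binding their tails. The salt differences of its 2 probe sets lay between -0.15 and 0.20 over the 3 strains and none passed the test. The 95% interval of the largest, 1389002_at in S rats, ran over 0.01 to 0.39 (limma adjusted p = 0.256). The signal of 1389002_at averaged 9.18 ± 0.03 on high salt and 9.33 ± 0.07 on low salt in ET3x1 rats, and 9.37 ± 0.07 and 9.17 ± 0.27 in S rats. The other probe set, 1382036_at, lay close to the lower limit, at a mean of 6.78 against a chip median of 6.38.

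Vinculin, the product of Vcl, joins talin to actin, and its 3 probe sets did not behave alike. The brightest, 1372905_at, did not pass the salt test in any strain, with differences of 0.02 ± 0.09 in ET3x2, 0.15 ± 0.09 in ET3x1 and -0.03 ± 0.08 in S rats. For 1375538_at, ET3x1 rats read 9.27, 8.92, 9.06 and 8.95 on high salt, against 8.58, 7.38, 7.91 and 8.25 on low salt. S rats read 8.94, 8.70, 9.06, 8.82 and 9.03 on high salt, against 9.39, 9.35, 9.52, 10.83 and 9.54 on low salt. All high-salt rats were thus above all low-salt rats in ET3x1 and below them in S. The rise in ET3x1 rats was 1.02 ± 0.25, or 2.03-fold (limma adjusted p = 0.00675), and the difference in S rats -0.81 ± 0.22 (limma adjusted p = 0.0464). In ET3x2 rats, 9.12, 8.99, 8.88 and 8.35 on high salt overlapped 8.15, 8.28, 9.03 and 8.55 on low salt (0.33 ± 0.25, limma adjusted p = 0.671). The S rat at 10.83 stood apart, and the S difference ranged between -0.91 and -0.54 and lost its call in 16 of the 26 fits that leave out 1 rat. With the Gapdh ratio in the fit the rise in ET3x1 rats was 0.38 (limma adjusted p = 0.803), and with the beta-actin ratio 0.80 (limma adjusted p = 0.175).

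The third vinculin probe set, 1398476_at on RAE230B, lay close to the lower limit, at a mean of 6.84 against a chip median of 6.38. It set the ET3x1 rats on high salt apart from all others. They read 7.29, 7.14, 7.32 and 7.17, against 6.82, 6.83, 6.70 and 6.87 in ET3x1 rats on low salt, while the group means elsewhere lay between 6.70 and 6.78. It rose by 0.43 ± 0.07 in ET3x1 rats (limma adjusted p = 9.31e-05), and by 0.35 with the Gapdh ratio in the fit (limma adjusted p = 0.273). In ET3x2 and S rats the differences were -0.07 ± 0.07 and 0.00 ± 0.06. Over the 26 rats this probe set showed no relation to 1375538_at (r = 0.06) or 1372905_at (r = -0.18), whereas those 2 moved together (r = 0.71). Where each probe set lies along the transcript was not analysed here.

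**Figure D2:**
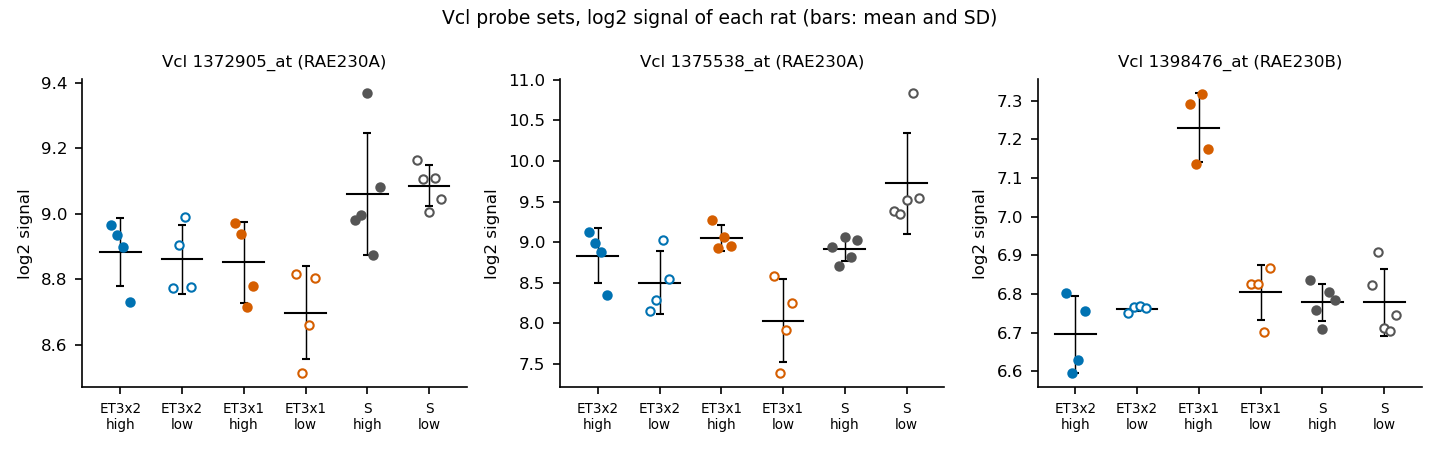
Log2 signal (y axis) of the 3 Vcl probe sets in each rat, by strain and diet (x axis), with group mean and SD as black bars. For 1375538_at the ET3x1 rats on high salt lie above those on low salt and the S rats on high salt below theirs, and for 1398476_at only the ET3x1 group on high salt, mean 7.23, leaves the level of the rest.

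Tensin 1, the product of Tns1, binds integrin tails and actin in mature adhesions, and its 4 probe sets, each designed from a different sequence record, moved in different ways. The brightest, 1371954_at, read 11.57, 11.63, 11.42 and 11.38 in ET3x1 rats on high salt, against 11.79, 11.72, 11.97 and 11.84 on low salt, a fall of -0.33 ± 0.08 (limma adjusted p = 0.00686). It differed by -0.05 ± 0.08 in ET3x2 and -0.03 ± 0.07 in S rats. The probe set with the largest change, 1371361_at, read 8.45, 8.45, 8.45 and 8.46 in ET3x1 rats on high salt, against 9.88, 10.01, 9.50 and 9.61 on low salt. The ET3x1 rats on high salt agreed to an SD of 0.0054, against SDs of 0.11 to 0.38 in the other groups. The fall was -1.30 ± 0.15, a level 2.46-fold lower (limma adjusted p = 9.34e-06), and of all 15473 probe sets it had the 4th smallest p in this comparison. Tns1 was chosen in part for a difference that used ET3x1 rats, so this p and rank are not independent of that choice.

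S rats went the other way at the same probe set. They read 9.10, 9.45, 9.61, 9.75 and 9.67 on high salt, against 8.06, 8.37, 8.97, 8.79 and 8.80 on low salt, with no overlap. The rise was 0.92 ± 0.13, or 1.89-fold (limma adjusted p = 0.0004). ET3x2 rats stayed high on both diets, with 9.71, 9.59, 9.91 and 9.61 on high salt and 10.03, 9.87, 9.81 and 10.02 on low salt, a difference of -0.23 ± 0.15 (limma adjusted p = 0.621). With the Gapdh ratio in the fit the fall in ET3x1 rats was -1.56 (limma adjusted p = 0.00484), and 1371361_at was then the only one of all tested probe sets still called in that comparison. With the beta-actin ratio it was -1.75 (limma adjusted p = 1.09e-06). Over 26 rats 1371361_at ran with the Gapdh ratio at r = 0.47 and with the beta-actin ratio at r = 0.12, and within groups at -0.29 and -0.64. In S rats the beta-actin ratio averaged 0.923 ± 0.174 on high salt and 1.14 ± 0.256 on low salt (SD).

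The other Tns1 probe sets did not follow. The RAE230B probe set 1381438_at rose in ET3x1 rats, with 8.63, 8.71, 9.02 and 8.87 on high salt against 8.62, 8.40, 8.51 and 8.45 on low salt, a difference of 0.31 ± 0.08 (limma adjusted p = 0.0125), which lost its call without ET3x1 high-salt rat 3 or low-salt rat 2. The other RAE230B probe set, 1391390_at, differed by -0.27 ± 0.18 in ET3x1, -0.20 ± 0.18 in ET3x2 and -0.04 ± 0.16 in S rats (limma adjusted p = 0.330, 0.737 and 0.926). In ET3x1 rats 1391390_at was called with the beta-actin ratio in the fit, at -0.76 (limma adjusted p = 0.0427), while with the Gapdh ratio 1371954_at stood at -0.48 and 1381438_at at 0.26 without a call (limma adjusted p = 0.239 and 0.597). Over the 26 rats 1381438_at ran against 1371954_at (r = -0.65), and the correlation was -0.01 once group means were removed. Between 1371361_at and the others r lay between -0.39 and 0.29.

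**Figure D3:**
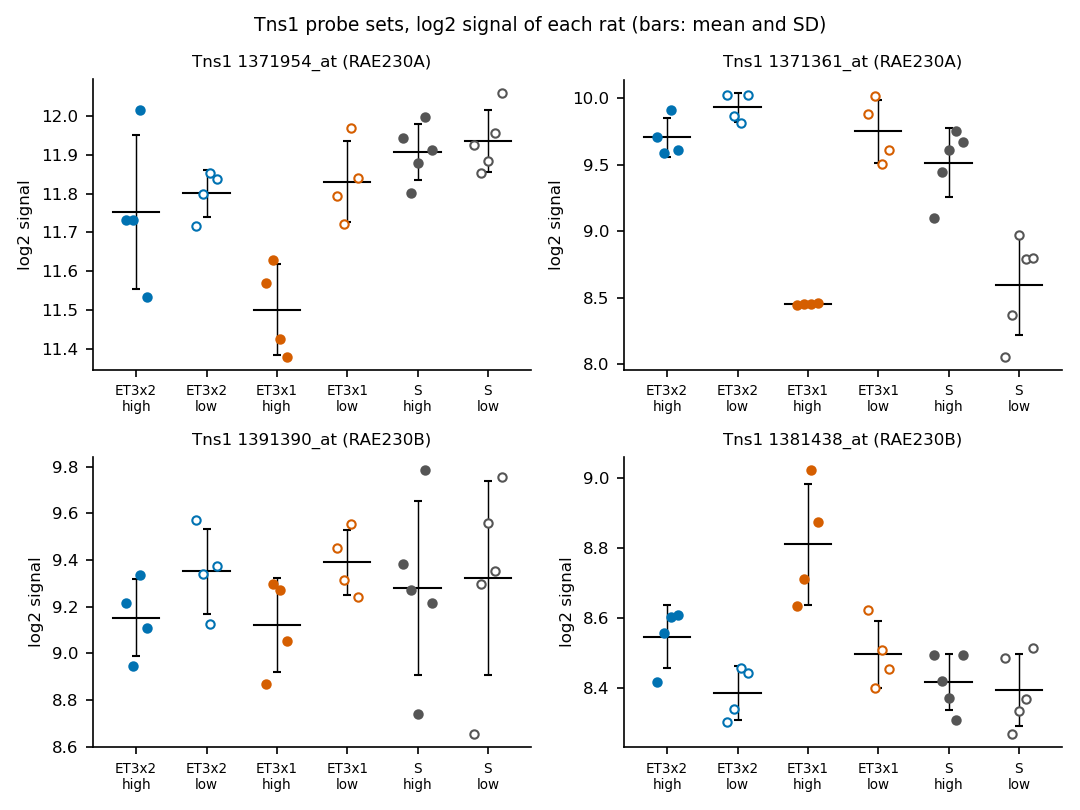
Log2 signal (y axis) of the 4 Tns1 probe sets in each rat, by strain and diet (x axis), with group mean and SD as black bars. For 1371361_at the ET3x1 rats on high salt lie together at 8.45 and the S rats on low salt average 8.60, below the 4 other groups, whose means are 9.52 to 9.93, while 1391390_at shows no such pattern.

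Paxillin (Pxn), a scaffold for adhesion kinases, and zyxin (Zyx), a LIM-domain protein of adhesions and stress fibres, each have 1 probe set, and neither passed the salt test in any strain. Pxn averaged 9.91 ± 0.05 on high salt and 10.14 ± 0.10 on low salt in ET3x1 rats, a difference of -0.24 ± 0.09 (95% interval -0.42 to -0.05, limma adjusted p = 0.0728), and the diets did not overlap. In ET3x2 and S rats it differed by 0.06 ± 0.09 and 0.09 ± 0.08. Zyx differed by 0.07 ± 0.10 in ET3x2, -0.08 ± 0.10 in ET3x1 and 0.18 ± 0.09 in S rats (limma adjusted p = 0.864, 0.612 and 0.278). The 95% interval for Zyx ran over -0.28 to 0.12 in ET3x1 rats and over 0.0004 to 0.36 in S rats.

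Alpha-actinin 1 (Actn1) crosslinks actin at adhesions and has 2 probe sets that did not run together (r = -0.30 over 26 rats). The brighter, 1389189_at, differed by no more than 0.09 in size between diets in any strain. The dimmer, 1398294_at, averaged 8.12 ± 0.11 on high salt and 8.44 ± 0.19 on low salt in ET3x1 rats, and 8.42 ± 0.13 and 8.04 ± 0.23 in S rats. Its differences had opposite signs, -0.32 ± 0.13 in ET3x1 and 0.39 ± 0.12 in S rats, and neither passed the test (limma adjusted p = 0.0997 and 0.0754).

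Plastin 3 (Pls3) packs actin filaments into tight bundles. Its dimmer probe set, 1371139_at, lay close to the lower limit, at a mean of 7.87 against a chip median of 7.51. Its low-salt means of 7.39 in ET3x1 and 7.21 in ET3x2 rats were below that limit. This probe set read 8.11, 8.54, 8.60 and 8.44 in ET3x1 rats on high salt, against 7.61, 7.32, 7.07 and 7.54 on low salt, with no overlap. It rose by 1.03 ± 0.14, or 2.05-fold (limma adjusted p = 3.51e-05). In ET3x2 rats it read 8.12, 7.31, 7.93 and 7.44 on high salt, against 7.04, 7.31, 7.41 and 7.09 on low salt, a difference of 0.49 ± 0.14 that missed the limit (limma adjusted p = 0.142). In S rats the difference was 0.29 ± 0.13 (limma adjusted p = 0.220). The brighter probe set, 1372947_at, moved the same way in each strain without a call, by 0.42 ± 0.12 in ET3x2, 0.30 ± 0.12 in ET3x1 and 0.07 ± 0.11 in S rats, and both probe sets ran together over the 26 rats (r = 0.79). With the Gapdh ratio in the fit the rise of 1371139_at in ET3x1 rats was 0.63 (limma adjusted p = 0.330), and with the beta-actin ratio 0.92 (limma adjusted p = 0.0136).

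Actr3 encodes Arp3, a subunit of the Arp2/3 complex, and was read from 1 probe set, 1395886_at on RAE230B. Of the 19 probe sets it showed the largest rise with salt in ET3x1 rats. The 2 probe sets that list Actr3 with a second symbol were not read. In ET3x1 rats it read 8.72, 9.04, 9.10 and 9.0 on high salt, against 7.62, 7.22, 7.29 and 7.53 on low salt, so that the lowest high-salt rat stood above the highest low-salt rat by more than the spread of either group. The rise was 1.55 ± 0.17, or 2.92-fold (limma adjusted p = 7.57e-06), the 2nd smallest p of all probe sets in this comparison. The values that brought in Actr3 are not recorded, so this rise may be among them. In ET3x2 rats 8.31, 7.31, 8.25 and 8.20 on high salt overlapped 7.85, 7.97, 7.48 and 7.62 on low salt (0.29 ± 0.17, limma adjusted p = 0.565). In S rats 8.73, 8.48, 8.55, 8.57 and 8.44 on high salt overlapped 7.90, 8.01, 8.28, 7.85 and 8.64 on low salt (0.42 ± 0.15, limma adjusted p = 0.131). Actr3 ran against the Gapdh ratio, with r = -0.74 over 26 rats and -0.58 within groups. With that ratio in the fit its rise was 0.95 (limma adjusted p = 0.193), and with the beta-actin ratio 1.16 (limma adjusted p = 0.00883). The Gapdh ratios of ET3x1 rats on both diets did not overlap, so this adjustment rests on the slope shared with the other rats.

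**Figure D4:**
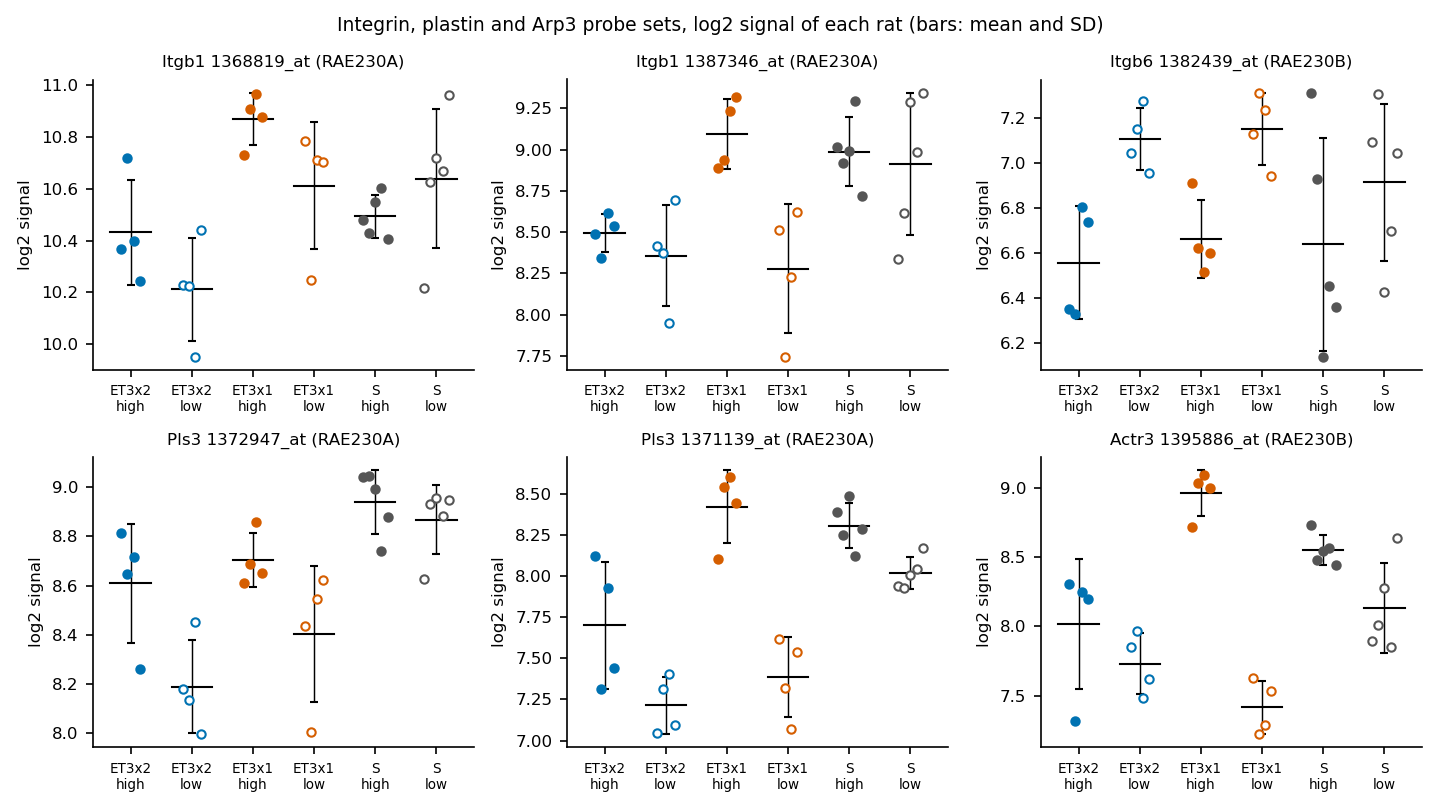
Log2 signal (y axis) of the Itgb1, Itgb6, Pls3 and Actr3 probe sets in each rat, by strain and diet (x axis), with group mean and SD as black bars. Actr3 averages 8.96 in ET3x1 rats on high salt and 7.42 on low salt, the widest gap between diets, and Itgb6 is lower on high salt in both congenic strains without overlap.

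Whether the salt response differed between strains was tested as an interaction in the same fit. The ET3x1 response exceeded the S response for Vcl 1375538_at by 1.83 ± 0.34 (limma adjusted p = 0.00255), for Actr3 by 1.13 ± 0.23 (0.00700), for Pls3 1371139_at by 0.75 ± 0.19 (0.0224) and for Vcl 1398476_at by 0.43 ± 0.09 (0.00736). It fell short of the S response for Tns1 1371361_at by -2.21 ± 0.20 (limma adjusted p = 2.78e-07) and for Actn1 1398294_at by -0.71 ± 0.18 (0.0228). These 6 of 19 probe sets compare with 5.49% called among all. The Actn1 call was lost without ET3x1 low-salt rat 2 or 3, and that of Pls3 without either of them or ET3x1 high-salt rat 3. Only Tns1 1371361_at was still called with the Gapdh ratio in the fit, at -2.46 (limma adjusted p = 8.31e-06). With bioD minus bioC in the fit 4 of the 19 were called, and 113 of all tested probe sets in place of 850. The S rats of this test also entered the differences that chose Tns1, Vcl and Pls3, and for Tns1 the ET3x1 rats did so too. The interactions with ET3x2 rats are built from the strain differences that chose Tns1, Vcl and Pls3, so they are given as a description, with no p, and nothing is read from their counts. The ET3x2 response minus the ET3x1 response was 1.07 ± 0.21 for Tns1 1371361_at, -1.26 ± 0.24 for Actr3 and -0.49 ± 0.09 for Vcl 1398476_at, the 3 of 19 past the limit (0.304% of all). The ET3x2 response minus the S response was -1.14 ± 0.20 for Tns1 1371361_at, the 1 of 19 past it (0.0194% of all). These 4 moved across the limit in 9, 7, 8 and 14 of the 26 fits that leave out 1 rat. The comparisons share groups, so they are not separate lines of evidence.

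The strain differences were set out next for each diet. Tns1, Vcl and Pls3 were named earlier for their ET3x2 differences, so the values of ET3x2 against S and against ET3x1 are a description with no p. The counts past the limit are given beside those of all probe sets, and nothing is read from them. On low salt Tns1 1371361_at averaged 9.93 ± 0.11 in ET3x2 and 8.60 ± 0.38 in S rats, a difference of 1.33 ± 0.14 that was 0.19 ± 0.14 on high salt. Vcl 1375538_at averaged 8.50 ± 0.39 in ET3x2 and 9.73 ± 0.62 in S rats on low salt, and 8.84 ± 0.34 and 8.91 ± 0.15 on high salt. Pls3 was lower in ET3x2 than in S rats on both diets, by -0.80 ± 0.13 on low and -0.61 ± 0.13 on high salt at 1371139_at, and by -0.68 ± 0.12 and -0.33 ± 0.12 at 1372947_at. Both Itgb1 probe sets were lower in ET3x2 than in S rats on low salt, by -0.43 ± 0.12 and -0.55 ± 0.18. In all 1 probe set was higher and 5 lower in ET3x2 rats on low salt (18.2% of all called), and on high salt 1 was lower (4.25% of all called). The strains did not overlap at 5 of the 19 on low salt (12.4% of all) and at 4 on high salt (10.5% of all). Against ET3x1 rats, none of the 19 was called on low salt (2.73% of all called), with 2 at an unadjusted limma p below 0.05 and no non-overlapping probe set (9.55% of all). On high salt 2 were higher and 6 lower in ET3x2 rats (9.22% of all called), and 6 did not overlap (18.1% of all). The largest of these was Tns1 1371361_at, at 9.70 ± 0.15 in ET3x2 and 8.45 ± 0.0054 in ET3x1 rats.

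ET3x1 rats differed from S rats on low salt at 11 of the 19 probe sets, 4 higher and 7 lower, where 26.8% of all were called, and the strains did not overlap at 6 (19.7% of all). Vcl 1375538_at was lower by -1.69 ± 0.24 and 1372905_at by -0.39 ± 0.09 (limma adjusted p = 6.95e-05 and 0.00223), with no overlap between strains. Actr3 was lower by -0.72 ± 0.16, Pls3 1371139_at by -0.63 ± 0.13 and Pls3 1372947_at by -0.47 ± 0.12 (limma adjusted p = 0.00273, 0.00174 and 0.00478). Itgb1 1387346_at and Actn1 1389189_at were also lower, by -0.63 ± 0.18 and -0.22 ± 0.08 (limma adjusted p = 0.0115 and 0.0362). Higher in ET3x1 rats were Tns1 1371361_at by 1.15 ± 0.14, Actn1 1398294_at by 0.41 ± 0.13, Zyx by 0.35 ± 0.09 and Pxn by 0.26 ± 0.09 (limma adjusted p = 2.13e-05, 0.0208, 0.00731 and 0.0236). The Itgb1 call was lost without ET3x1 low-salt rat 2. The Pxn call was lost without any 1 of ET3x1 low-salt rats 2, 3 and 4 or S low-salt rat 1, and those of Actn1 without any 1 of 5 rats at 1389189_at and of 3 at 1398294_at. The Gapdh ratios of these low-salt groups lay near each other, at 0.877 ± 0.0994 in ET3x1 and 0.827 ± 0.0723 in S rats, and 10 of the 11 calls were made with that ratio in the fit. Tns1, Vcl and Pls3 were chosen for contrasts that used the same S rats, and Tns1 also for a contrast with ET3x1 rats.

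On high salt 3 probe sets were higher and 3 lower in ET3x1 than in S rats (14.5% of all called), and the strains did not overlap at 8 (15.1% of all). Vcl 1398476_at was higher by 0.45 ± 0.06, Tns1 1381438_at by 0.39 ± 0.08 and Itgb1 1368819_at by 0.38 ± 0.12 (limma adjusted p = 8.24e-05, 0.00242 and 0.0381). Tns1 1371361_at was lower by -1.06 ± 0.14, Tns1 1371954_at by -0.41 ± 0.08 and Tln1 1382036_at by -0.28 ± 0.08 (limma adjusted p = 6.98e-05, 0.00154 and 0.0200). Tns1 1371361_at was thus above S rats on low salt and below them on high salt, in both cases without overlap. Here the Gapdh ratios differed, 0.594 ± 0.0265 in ET3x1 and 0.812 ± 0.0526 in S rats, and 3 of the 6 calls were made with that ratio in the fit. The Itgb1 call was lost in 7 of the 26 fits that leave out 1 rat, and the Tln1 call without ET3x1 high-salt rat 3 or 4. Here too, Tns1, Vcl and Pls3 were chosen for contrasts with S rats, and Tns1 also for a contrast with ET3x1 rats.

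**Figure D5:**
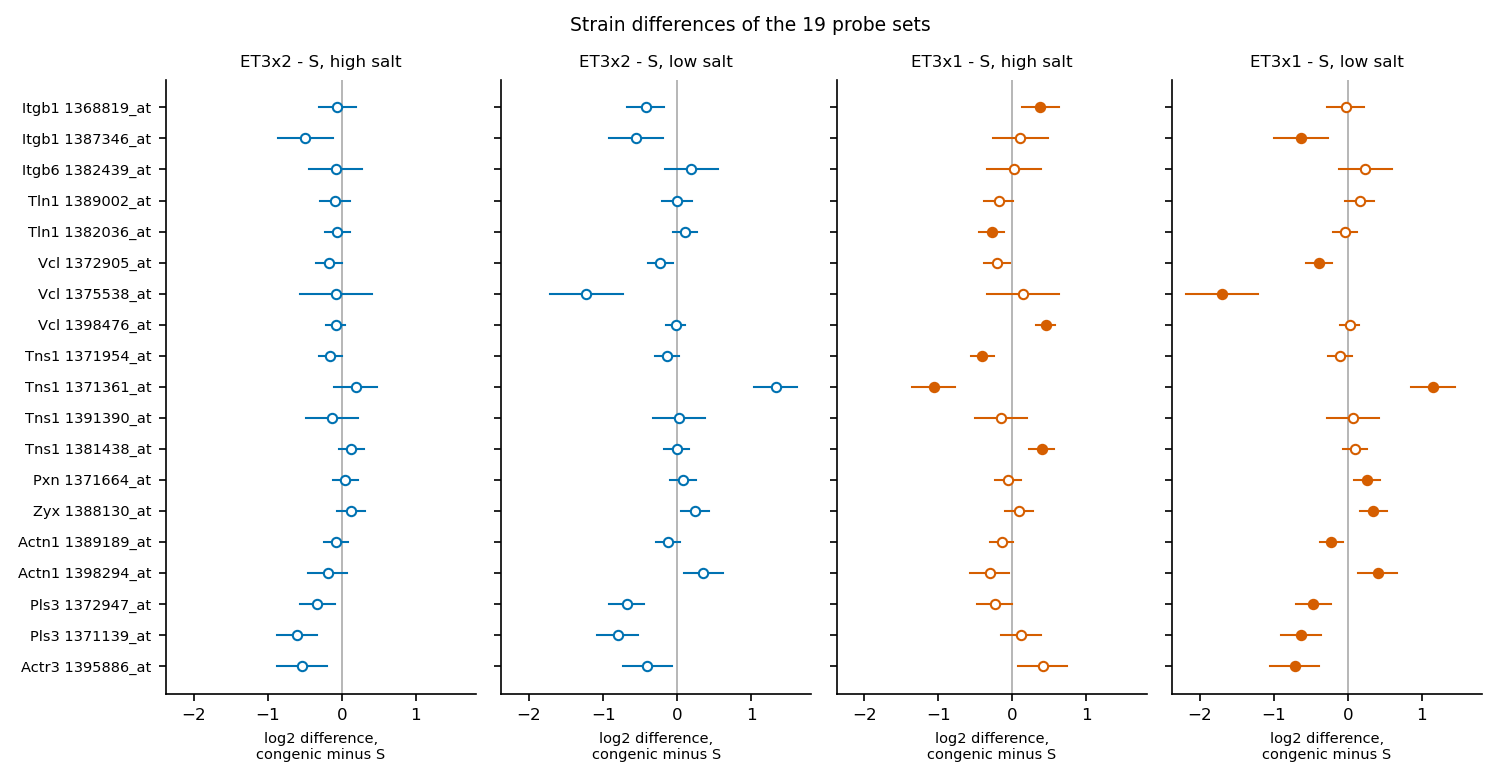
Strain differences of the 19 probe sets: log2 difference, congenic strain minus S (x axis), for each probe set (y axis), on high and on low salt, with 95% intervals from the limma fit. Filled points in the ET3x1 panels have an adjusted p below 0.05 (6 on high and 11 on low salt). The ET3x2 panels are a description and mark no calls. Tns1 1371361_at lies at 1.15 in ET3x1 rats on low salt and at -1.06 on high salt.

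Other genes of the same machinery were read from 5 lists, each gene through its probe set brightest over its chip median. Of 27 actin filament and crosslinker genes 7 rose and none fell with salt in ET3x1 rats (15.9% of all probe sets called), with a median difference of 0.10 against -0.03 over all tested probe sets. The largest rises were those of Rdx, for radixin, which links actin to the membrane (0.91 ± 0.19), Actn4, the second alpha-actinin (0.63 ± 0.11), and Pls1, the plastin of microvilli (0.39 ± 0.09). In S and ET3x2 rats the median of these 27 was 0.15 and 0.11, against 0.03 and 0.02 over all tested probe sets. In each of these strains 2 rose and none fell (2.78% and 0.304% of all called). Those of S rats were Tpm4 (0.33 ± 0.08) and Tagln2 (0.28 ± 0.07). Of 28 Arp2/3 and actin turnover genes, 1 rose and 6 fell in ET3x1 rats. Actr2, for the Arp2 partner of Arp3, was read from a probe set of the kind that can match several transcripts and fell by 0.68 ± 0.17 on the log2 scale and Arpc5l by 0.44 ± 0.10, while Capza2, for a capping protein subunit, rose by 0.56 ± 0.10. Actr3 and Actr2 thus moved in opposite directions. Of 10 integrin subunits 1, Itgav for the alpha v chain, rose in ET3x1 rats (0.54 ± 0.08) and none fell. None of these list calls in ET3x1 rats was made with the Gapdh ratio in the fit, since Tns1 1371361_at was then the 1 call among all tested probe sets. Of 34 adaptors and kinases none was called by limma for salt in any strain, with 4 in ET3x2, 5 in ET3x1 and 7 in S rats at an unadjusted p below 0.05.

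Of 12 matrix ligands of integrins 4 rose and none fell with salt in S rats (2.78% of all probe sets called), with a median difference of 0.21 against 0.03 over all tested probe sets. Spp1, for the integrin ligand osteopontin, rose by 0.73 ± 0.12, Col1a1 by 0.46 ± 0.13 and Col4a2 by 0.44 ± 0.10. In ET3x1 rats Spp1 also rose, by 0.78 ± 0.13, while the laminin genes Lamb2 and Lama5 fell by 0.53 ± 0.12 and 0.34 ± 0.09 on the log2 scale, and none of the 3 was called with the Gapdh ratio in the fit. Of the 27 actin filament and crosslinker genes, 2 rose and none fell with salt in ET3x2 rats (0.304% of all probe sets called). These were Lcp1 (0.44 ± 0.09) and Actg1 (0.43 ± 0.08). With the Gapdh ratio in the fit, none of all tested probe sets was called for salt in ET3x2 rats, in place of 47. Lcp1 is also one of the leukocyte markers used here, and Col1a1 one of the fibroblast markers. All these list values passed the limma test, and the lists were chosen with results of these data known.

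Markers of other cells moved in some of the same comparisons. Of 7 tested leukocyte markers, 5 were higher in ET3x1 than in S rats on low salt (26.8% of all probe sets called). Their log2 summed level was 12.56 to 12.78 in ET3x1 and 12.12 to 12.42 in S rats. In ET3x2 rats on low salt 5 of the 7 were also higher than in S rats (18.2% of all called), with a summed level of 12.28 to 12.87. On high salt 2 were (4.25% of all called). Of 3 tested podocyte markers, 2 were lower in ET3x1 than in S rats on low salt and all 3 on high salt (14.5% of all called). On high salt the summed level was 10.09 to 10.26 in ET3x1 and 10.54 to 10.86 in S rats. In ET3x2 rats 2 of the 3 were lower than in S rats on each diet. Of 6 proximal tubule markers 3 were higher and 2 lower in ET3x1 than in S rats on low salt, and 2 were lower on high salt. Of 5 tested endothelial markers 1 was lower on low and 2 on high salt. With salt 1 leukocyte marker rose in ET3x2 (0.304% of all called), 2 in ET3x1 (15.9%) and 2 in S rats (2.78%). In ET3x1 rats the median change of the 7 was -0.03, and their summed level averaged 12.61 on high and 12.68 on low salt. With salt in ET3x1 rats 2 of 5 smooth muscle and pericyte markers rose and 1 fell, and in S rats 2 rose, beside the same shares of all probe sets. Not every marker call is set out here, and the part of the markers in the results was not tested.

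The probe sets most like those of Tns1 and Vcl were sought over the 26 rats by Pearson correlation, as a description in which rats of a group share strain and diet. Tns1 1371361_at was most like Lpgat1 (0.93), Cpd (0.92) and Esf1 (0.92), and most opposed to Cox7b (-0.79). Vcl 1375538_at was most like Gnb1 (0.94), Usp46 (0.91) and Map3k12 (0.89), and most opposed to Psma7 (-0.85). Tns1 1381438_at was most like Slc45a1 (0.87) and most opposed to Larp7 (-0.86), and Vcl 1398476_at was most like Mthfs (0.82) and most opposed to Scyl2 (-0.83). Vcl 1372905_at was most like Kpna3 (0.86), Tns1 1371954_at most like Zfp318 (0.80) and Tns1 1391390_at most like Nedd4l (0.75).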

How the data were processed

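Left kidneys of 26 rats were hybridised to RAE230A and RAE230B arrays, 2 per rat. The deposited values are log2 signals per probe set; how the authors summarised and scaled the probes was not given in the sources used here. Strain and diet groups come from the labels, which name no batch or pairing. Each rat is 1 replicate, and the number of arrays limits the precision.

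Each chip was fitted with limma 3.58.1 in R 4.3.3 (6 group means, 20 residual degrees of freedom, variance trend with signal). Control probe sets were left out, as were probe sets with a mean below the chip median of 7.51 (RAE230A) or 6.38 (RAE230B). The 100 probe sets on both chips were tested on RAE230A, which left 7933 and 7540. Benjamini-Hochberg adjustment ran over all 15473, and an adjusted p below 0.05 was a call. The script was tested on simulated data. Values are differences of log2 signal ± SE, or group means ± SD.

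All probe sets of the members are named. List genes are named for some of the salt comparisons only, up to 3 called genes with the largest change in each. The lists also hold called genes in other salt, strain and interaction comparisons, which are not set out here. The members and lists were chosen with earlier results of these data known. Alternatives were quantile normalization, centred medians, no filter, no trend, 2 quality covariates, leaving out each rat and, chosen after seeing the data, the beta-actin ratio as a covariate. Promoters are RefSeq GRCr8. Tables were handled with pandas 2.3.3 in Python 3.11.15. The result of 1 further gene list is not reported here.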

Additional observations from a re-analysis of the deposited data

Results flagged for a closer look

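Single rats stood apart from their group in 6 of 114 tests of a group at a probe set, by Dixon's criterion for a gap between 1 value and the others, which chance meets in about 1 of 20 groups. They were ET3x1 low-salt rat 2 for Itgb1 1368819_at, low at 10.25 log2 units, ET3x2 low-salt rat 1 for Tln1 1382036_at, high at 7.02, and S low-salt rat 4 for Vcl 1375538_at, high at 10.83. The others were ET3x2 low-salt rat 3 for Zyx, low at 9.65, S low-salt rat 1 for Pls3 1372947_at, low at 8.63, and ET3x2 high-salt rat 2 for Actr3, low at 7.31. These are 6 different rats.

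The interaction term of the limma fit, which compares the salt response between strains, passed the limit at 10 points. Those that involve ET3x2 rats are a description, and nothing is read from their count. Between ET3x1 and S rats the difference was -2.21 for Tns1 1371361_at, 1.83 for Vcl 1375538_at, 1.13 for Actr3, 0.75 for Pls3 1371139_at, -0.71 for Actn1 1398294_at and 0.43 for Vcl 1398476_at. Between ET3x2 and ET3x1 rats it was 1.07 for Tns1 1371361_at, -1.26 for Actr3 and -0.49 for Vcl 1398476_at. Between ET3x2 and S rats it was -1.14 for Tns1 1371361_at. The Tns1 and Vcl values that involve ET3x2 rats are built from the differences that chose these genes. ET3x1 and S rats also entered the differences that chose Tns1, and S rats those that chose Vcl and Pls3. Between ET3x2 and ET3x1 rats, Tns1, Actr3 and Vcl lost their calls in 9, 7 and 8 of the 26 fits that leave out 1 rat. Between ET3x2 and S rats, Tns1 lost its call in 14 of them. The RNA quality ratios of the ET3x1 rats on high salt moved with the differences that involve ET3x1 rats, and with the Gapdh ratio in the fit 1 of the 6 between ET3x1 and S rats was called.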

How the results depend on the processing

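No called difference changed sign under the alternatives run, while some that were not called did. Of the 228 single results, 26 lost and 2 gained a call with the Gapdh ratio as a covariate, 14 and 6 with the beta-actin ratio, 11 and 0 with the bioD minus bioC difference, 4 and 0 with centred medians, 4 and 0 with no filter, and 2 and 6 with quantile normalization, while leaving out the intensity trend changed no call. With the Gapdh ratio the called members numbered 1 in place of 8 for salt in ET3x1. For ET3x2 against S they numbered 4 in place of 6 on low salt and 3 in place of 1 on high salt. For ET3x1 against S they numbered 10 in place of 11 on low and 3 in place of 6 on high salt. For ET3x2 against ET3x1 on high salt they numbered 2 in place of 8. The interactions gave 1 in place of 6 for ET3x1 with S and 1 in place of 3 for ET3x2 with ET3x1. With the beta-actin ratio the called members numbered 5 for salt in ET3x1 and 1 in place of 2 for salt in S. For ET3x2 against S they numbered 7 on low and 3 on high salt, and for ET3x1 against S 4 on high salt. For ET3x2 against ET3x1 they numbered 1 in place of 0 on low and 4 on high salt, and 1 for their interaction. With bioD minus bioC the called members numbered 1 for salt in S and 4 for ET3x2 against S on low salt. For ET3x1 against S they numbered 10 on low and 5 on high salt, and 4 for their interaction. They numbered 5 for ET3x2 against ET3x1 on high salt and 0 in place of 1 for the interaction of ET3x2 with S. Centred medians gave 1 for salt in S and 0 for the interaction of ET3x2 with S. They gave 10 for ET3x1 against S on low salt and 7 for ET3x2 against ET3x1 on high salt. No filter gave 1 for salt in S and 5 for ET3x2 against ET3x1 on high salt. Quantile normalization gave 10 in place of 6 for ET3x2 against S on low salt and 7 for ET3x2 against ET3x1 on high salt. It also gave 7 for the interaction of ET3x1 with S. The cause was not tested. Over all probe sets, salt in ET3x1 gave 2457 calls, 1 with the Gapdh ratio and 616 with the beta-actin ratio. With bioD minus bioC, salt in S gave 121 in place of 430, and the interaction of ET3x1 with S 113 in place of 850.

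Leaving out each rat in turn gave 0 to 2 called members for salt in ET3x2, 7 to 10 in ET3x1 and 1 to 4 in S. It gave 5 to 8 for ET3x2 against S on low and 0 to 2 on high salt, 7 to 11 for ET3x1 against S on low and 4 to 7 on high salt, and 0 to 1 for ET3x2 against ET3x1 on low and 4 to 8 on high salt. The interactions gave 0 to 2 for ET3x2 with S, 4 to 7 for ET3x1 with S and 0 to 3 for ET3x2 with ET3x1. No paired analysis was possible because the labels give the rats no shared numbers, litters or batches.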
